A study of Mus musculus with 12 samples.

Results

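The choroid plexus lies in the ventricle against the hippocampus, so a hippocampal dissection can carry more or less of it. The 12 bulk hippocampus libraries of this study were split by how much choroid plexus RNA they held, and the sides were chosen by the measured level of Ttr (transthyretin), the main secreted product of that tissue. A library was placed on the low side if its Ttr level was under 1000 CPM of its total counts. This gave 3 low libraries (WT 2, WT 3 and cKO 4) and 9 high libraries (WT 1, 4, 5 and 6 and the libraries labelled cKO 1, 2, 3, 5 and 6), of 12 in all. Because Ttr values chose the sides, the differences of the split are given as a description. No gene's p-value is printed for the split, where p-values served to rank genes for naming. Counts of genes past the edgeR threshold (an adjusted p of 0.05) only describe these libraries. Gene-level tests were kept for the differences among the 9 high libraries, which the threshold did not use.

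All animals were male mice, 6 wild type (WT) and 6 with a conditional knockout (cKO) of the miR379-410 microRNA cluster driven by Cre in Emx1 positive cells. Emx1-Cre acts in cells of the dorsal telencephalon, so other cells of the tissue, vessels and microglia among them, keep the cluster. Libraries were made with the NEB Next Ultra kit from polyA RNA (Trizol-chloroform), and their totals ran from 42360624 to 51095816 counts. The labels do not give the animals' age or strain. B830012L14Rik, a non-coding gene beside the cluster, was at 17.4 to 25.8 CPM in 5 cKO libraries and at 0.788 CPM in the library labelled cKO 1, within the WT range of 0.310 to 0.865 CPM. Emx1 was at 9.14 CPM in the same library, within the WT range of 8.38 to 9.60, and at 5.91 to 6.84 in the other cKO libraries. At both genes that library goes against its label. It stayed in the cKO group of the models, and the main counts are also given without it. Elsewhere CPM are scaled between libraries by the TMM method. Replicates all differed by more than sampling of reads would give. In bulk tissue, fewer cells of a type and less RNA per cell cannot be told apart.

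The choroid plexus is a sheet of epithelium over fenestrated vessels and stroma that makes cerebrospinal fluid. Its epithelium is joined by leaky tight junctions built on claudin-2, moves bicarbonate, chloride and water into the ventricle, and secretes carrier proteins such as transthyretin. Otx2 is a homeodomain transcription factor that the epithelium needs to form and to persist. The ventricle wall beside it is lined by ependymal cells, whose motile cilia are built by genes that RFX factors and Foxj1 switch on.

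Promoters of these genes are shown because the choroid plexus genes moved together with Otx2 and the cilia genes were also higher on the high side. RefSeq promoters (GRCm38.p6, 250 bases before to 50 after the start) were matched for 60 of the 74 choroid plexus genes tested, 24 of 26 cilia genes and 13105 of all genes tested. The core of the OTX site, TAATCC on either strand, was present in 8 of those 60 (13.3%), in 3 of 24 cilia genes (12.5%) and in 7.10% of all genes with a promoter. A gene counts once if any of its promoters holds the letters. The following windows of 30 bases, written on the gene's strand, hold it in capitals, in either orientation.
Otx2, chr14:48665303-48665332, minus strand: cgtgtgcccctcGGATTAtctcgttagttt
Ace, chr11:105967909-105967938, plus strand: ggctgggttttaTAATCCgcagggcggtcg
Abca4, chr3:122044390-122044419, plus strand: gtaattagagggGGATTAtgcttgaagggg
Car14, chr3:95904729-95904758, minus strand: atcctgcatgccTAATCCgctatttaagga
Mfrp, chr9:44101624-44101653, plus strand: ctcagctgagttGGATTAaggaccattccg
The X-box that RFX factors bind, searched on either strand, was present in 2 of 24 cilia genes (8.33%), in none of the 60 choroid plexus genes and in 0.618% of all. The shorter GTTGCC, which can overlap it, was present in 13 of 24 cilia genes (54.2%), 13 of 60 choroid plexus genes (21.7%) and 14.9% of all. Both cilia genes with the long form are shown, with the X-box in capitals.
Pifo, chr3:106001498-106001527, minus strand: ccgcggttccGTTCCCTTGGCAACgtagta
Iqca, chr1:90153515-90153544, minus strand: gccttgcaGTTGCCACGGAAACggaaacat
A match describes these letters only and is no evidence of binding.

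Ttr made up 0.00279%, 0.00492% and 0.0493% of the counts of cKO 4, WT 2 and WT 3, and 0.221% to 0.770% in the high libraries. Just inside the threshold stood WT 3 with Ttr at 493 CPM of its total, and just outside it WT 4 at 2213, a ratio of 4.49. The highest library, WT 1, held 277 times the Ttr share of the lowest, cKO 4. The low side was itself uneven, with WT 3 between cKO 4 and the high libraries.

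The other markers followed the same split. Aqp1, the water channel of the apical membrane (chromosome 6 from 55336432 to 55348555, GRCm38), was at 0.692 CPM in WT 2, 2.80 in WT 3 and 1.03 in cKO 4, and at 11.1 to 34.3 in the high libraries (median 21). Cldn2, claudin-2 (chromosome X from 139800828 to 139811386), was at 0.955, 2.95 and 0.802 CPM in the same low libraries, and at 12.8 to 41.9 in the high ones (median 24.8). Otx2 (chromosome 14 from 48657677 to 48673819) was at 0.740, 3.00 and 0.528 CPM, against 9.47 to 31.4 (median 17.3). In all 3 genes the lowest high library lay above the highest low one, and WT 3 led the low side. The label therefore holds for its defining markers, which were low but not at 0 on the low side.

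**Figure D1:**
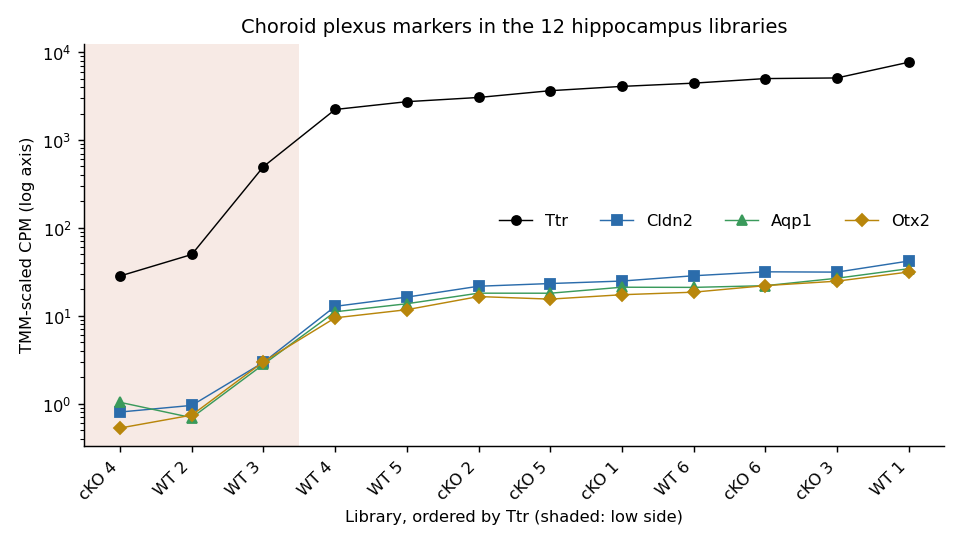
TMM-scaled CPM (log axis) of Ttr, Cldn2, Aqp1 and Otx2 in each of the 12 libraries, ordered by Ttr, with the 3 low libraries shaded; points are single libraries and lines only join them. Aqp1, Cldn2 and Otx2 stay at or below 3.00 CPM in the shaded libraries and reach 9.47 CPM or more in every other library.

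Of 78 genes in 5 choroid plexus lists, 74 could be tested, 71 were higher on the high side and 61 did not overlap between the sides. Without Ttr, which separates by construction, these were 70 and 60 of 73, as a description. Among all 19325 genes tested, 4.8% lay above without overlap and 1.85% below, and edgeR called 4.08% higher (788 genes) and 0.699% lower (135 genes). These shares are printed for scale, since the split and the lists are both about choroid plexus. The median difference was 2.17 on the log2 scale over the choroid plexus genes, 1.92 without Ttr, and 0.00 over all genes tested. The low side kept under 10% of the mean level of the high side in 19 of the 74 genes, 10% to 50% in 38 and over 50% in 17. WT 3 was the highest low library for 47 of the 74 genes, WT 1 the highest high library for 57, and WT 4 the lowest high library for 57.

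The secreted proteins and receptors had a median difference of 2.52 over 16 genes, all higher. Enpp2, autotaxin, was at 131 CPM in WT 2, 327 in WT 3 and 99.0 in cKO 4, and at 967 to 2996 in the high libraries (median 1777). Its difference was 3.36 ± 0.43 (log2, SE), or 10.2-fold as fitted with genotype in the model. Sostdc1, a secreted inhibitor of BMP and Wnt signals, was at 2.39, 3.76 and 1.69 CPM and at 13.4 to 41.9 in the high libraries (median 22.9), a difference of 3.20 ± 0.38. Neither gene overlapped between the sides. Prlr, the prolactin receptor, was at 4.33, 9.42 and 3.48 CPM against 24.7 to 59.6 (median 41.5), a difference of 2.99 ± 0.35. Ace, angiotensin-converting enzyme, was at 13.5, 25.8 and 18.2 CPM against 59.7 to 156 (median 108), a difference of 2.43 ± 0.28. Both again separated the sides, and WT 3 was the highest low library in each. Igfbp2, which binds insulin-like growth factors, kept more of its level, at 20.2, 22.8 and 27.1 CPM against 55.3 to 122 (median 94.5), with cKO 4 the highest of the low libraries. Htr2c, the serotonin 2C receptor, was at 32.9, 36.8 and 42.5 CPM against 50.1 to 87.3 (median 65.4), so the lowest library still held 50.3% of the high median. Cp, ceruloplasmin, differed by 0.27 ± 0.11 and overlapped between the sides.

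Channels and transporters had a median of 1.67 over 20 genes and ran from -0.07 to 4.55. Kcnj13, an inward rectifier potassium channel (chromosome 1 from 87386363 to 87394729), was at 0.812, 3.45 and 0.950 CPM in WT 2, WT 3 and cKO 4 and at 13.2 to 47.4 in the high libraries (median 29.6). Kcne2, a potassium channel subunit, was at 0.501, 2.45 and 0.296 CPM against 12.1 to 40.6 (median 20.8). Slc4a5, a sodium bicarbonate cotransporter, was at 0.358, 3.74 and 0.253 CPM against 17.7 to 54.7 (median 33.3). For these 3 genes WT 3 stood several-fold above the other low libraries and well below every high one. In cKO 4, Slc4a5 was at 0.761% and Kcne2 at 1.42% of the high median, beside 0.696% for Ttr. Slc4a2, an anion exchanger of the basolateral side, was at 22.8, 32.1 and 23.8 CPM against 55.4 to 118 (median 86.8). Of its high median, 26.3% was present in WT 2. Trpm3, a cation channel that neurons also express, was at 65.8, 57.4 and 43.6 CPM against 91.1 to 179 (median 133). Atp1b1, a sodium pump subunit also abundant in neurons, was at 1507, 1504 and 1547 CPM against 1378 to 1520 (median 1462), and the sides overlapped.

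**Figure D2:**
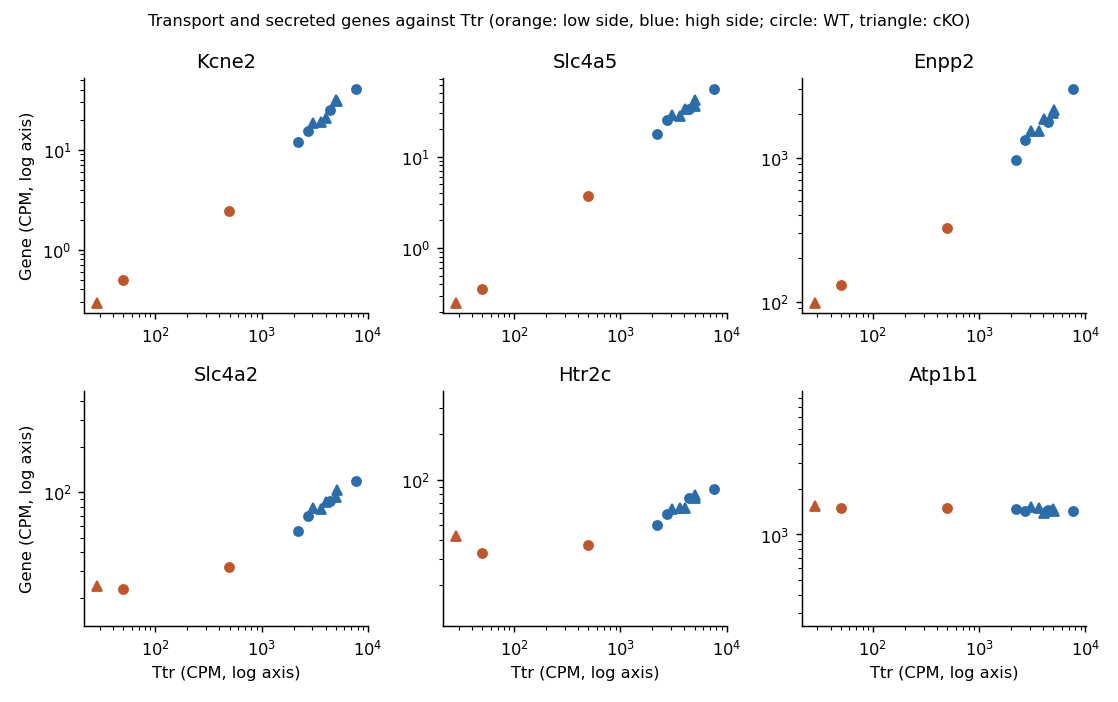
Levels of 6 choroid plexus list genes against Ttr in each library (CPM, log axes; orange low side, blue high side; circles WT, triangles cKO, including the library labelled cKO 1). Kcne2, Slc4a5 and Enpp2 run along with Ttr over its whole range, Slc4a2 and Htr2c cover a narrower range, and Atp1b1 stays between 1378 and 1547 CPM.

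Junction, keratin and basement membrane genes separated the sides in 12 of 12 cases, with a median of 2.59. Krt8 and Krt18, keratins of simple epithelia, differed by 2.81 ± 0.40 and 2.88 ± 0.39 (log2, SE). Col8a1, a short-chain collagen, was at 1.36, 3.65 and 2.45 CPM in WT 2, WT 3 and cKO 4 and at 11.1 to 35 in the high libraries (median 21.8). Col9a3, a collagen IX chain, was at 9.93, 15.8 and 8.89 CPM against 44.7 to 115 (median 65.9), and Col4a4, a collagen IV chain, was at 1.1, 1.44 and 1.31 CPM against 4.65 to 11.1 (median 7.57). The 12 transcription factors had a median of 0.73 and 5 of them separated the sides. Lmx1a, which marks the roof plate that gives rise to the choroid plexus, differed by 3.55 ± 0.50, Msx1 by 1.87 ± 0.27, and Gmnc, needed for multiciliated cells, by 1.18 ± 0.17. Foxj1, the master regulator of motile cilia, was at 12.9, 10.5 and 8.93 CPM against 15.6 to 33.6 (median 24.7). Pax6 and Hes1, which other cells of the hippocampus express, differed by 0.02 ± 0.10 and 0.04 ± 0.13 and overlapped. The remaining 14 genes had a median of 2.63, among them Mfrp at 4.23 ± 0.60 and Lbp at 2.71 ± 0.29. Defb11 had no count in WT 2 and cKO 4 and was at 0.131 CPM in WT 3 and 0.297 to 1.75 in the high libraries.

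Among the 9 high libraries Ttr still spanned 1.80 doublings, from WT 4 at 2222 to WT 1 at 7657 CPM, and a slope on log2 Ttr was fitted with genotype in the model. A slope of 1 means that a gene doubled with each doubling of Ttr. edgeR called 344 genes as rising, Ttr itself among them (1.76% of 19591 tested), and 14 as falling (0.0715%). Of the 73 choroid plexus genes other than Ttr, 69 had a positive slope and 55 rose, with a median slope of 0.67 beside -0.00374 over all genes tested. The remaining 288 rising genes were on none of these lists. Without WT 1 the span was 1.21 doublings, the counts were 48 rising and 0 falling (1438 genes at an unadjusted p under 0.05), and 26 of the 73 choroid plexus genes rose with a median slope of 0.74. The number rising was 158 without WT 4 and 219 without WT 5. Without the library labelled cKO 1 the counts were 337 and 20, and 52 of the 73 choroid plexus genes rose. The number falling was 6 without WT 5, 9 without cKO 3, 22 without cKO 5 and 4 without cKO 6.

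Several choroid plexus genes rose nearly in step with Ttr. Kcne2 had a slope of 0.99 ± 0.07 (SE, edgeR adjusted p = 4.82e-05), Steap1, a metalloreductase, 1.00 ± 0.09 (edgeR adjusted p = 0.000269), and Wfdc2, a secreted protease inhibitor, 0.97 ± 0.09 (edgeR adjusted p = 0.000367). The gene 1500015O10Rik had 0.96 ± 0.04, with an edgeR adjusted p of 1.06e-06. Of the markers, Otx2 had 0.93 ± 0.07, Cldn2 0.92 ± 0.06 and Aqp1 0.85 ± 0.06, with edgeR adjusted p of 8.81e-05, 3.68e-05 and 9.54e-05. In all, 11 of the 73 genes had a slope of at least 0.9. Other genes rose by shallower slopes, Slc4a2 by 0.56 ± 0.05 (edgeR adjusted p = 0.000156), Slc31a1, a copper transporter, by 0.49 ± 0.04 (0.000203), and Htr2c by 0.43 ± 0.05 (0.000836). Trpm3 had 0.35 ± 0.11 and did not pass (edgeR adjusted p = 0.167), and Atp1b1 had -0.03 ± 0.04. By role, the median slope was 0.69 for the secreted proteins and receptors without Ttr (13 of 15 rose), 0.65 for transport (15 of 20), 0.71 for junctions and matrix (12 of 12), 0.50 for transcription factors (4 of 12) and 0.78 for the others (11 of 14).

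Outside the choroid plexus and cilia lists, the 12 genes with the smallest p among those higher in the split were above the low side without overlap and differed by 1.80 to 3.50. The split itself ranked these genes, so their separation is a description and no support for it. Slc39a4, a zinc importer (chromosome 15 from 76612383 to 76617384), was at 0.692, 0.940 and 0.697 CPM in WT 2, WT 3 and cKO 4 and at 2.89 to 6.71 in the high libraries (median 4.90). Wdr86 was at 1.00, 2.12 and 1.18 CPM against 8.78 to 23.2 (median 13), and its slope among the high libraries was 0.83 ± 0.08 (edgeR adjusted p = 0.000269). Matrix genes stood among the 12. Col4a3, which pairs with Col4a4 in basement membrane collagen, differed by 2.87 ± 0.32, Col8a2, the partner of Col8a1, by 2.65 ± 0.30, and Col17a1, a collagen of epithelial anchorage, by 3.50 ± 0.43. Their slopes were 0.64 ± 0.12, 0.77 ± 0.09 and 0.90 ± 0.11, with edgeR adjusted p of 0.0199, 0.00105 and 0.00144. The others were Drc7, a part of the ciliary dynein regulatory complex, Pon3, a lactonase, Scube3, Mdfic, Tmem184a, BC067074 and Six3. Six3, a homeodomain gene on the striatum list, was at 0.215, 0.306 and 0.360 CPM against 1.48 to 3.89 (median 2.33). Six3os1, which overlaps it on the opposite strand, differed by 3.16 ± 0.41, and without a stated strand setting the reads of the pair cannot be told apart.

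Genes with the smallest p in the slope, apart from the choroid plexus lists, included Tcn2, the carrier of vitamin B12 in blood and fluids, at 0.47 ± 0.03 (edgeR adjusted p = 3.95e-05). It was at 15.6, 18.4 and 18.4 CPM in the low libraries and at 26.8 to 47.5 in the high ones (median 36.2). Epn3, an endocytic adaptor, had 0.78 ± 0.05, Rbm47, an RNA-binding protein of epithelia, 1.02 ± 0.07, and Slc2a12, a glucose transporter, 0.73 ± 0.06, with edgeR adjusted p of 6.07e-05, 6.32e-05 and 0.00012. Rab20 (1.02 ± 0.08), Pcolce2 (0.69 ± 0.06), Sowahc (0.61 ± 0.05) and Sema3b, a secreted guidance protein (0.75 ± 0.07), also rose (edgeR adjusted p at most 0.000356), as did Mdfic and Gm44250. Without WT 1, Sema3b (edgeR adjusted p = 0.0814) and Six3os1 (0.0561) no longer passed.

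**Figure D3:**
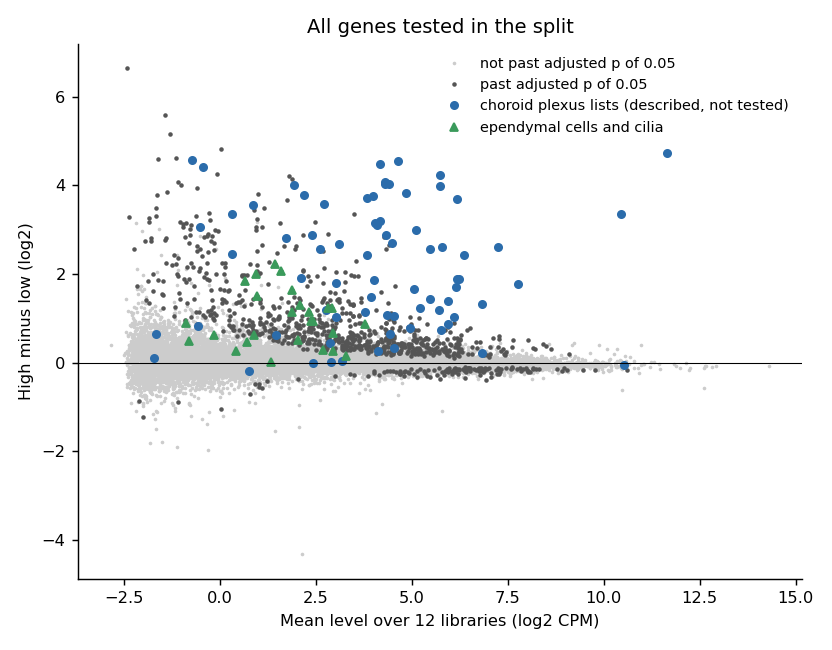
Difference between high and low libraries (log2, y axis) against the mean level over 12 libraries (log2 CPM, x axis) for the 19325 genes tested; dark points passed an adjusted p of 0.05 in edgeR, blue circles are the choroid plexus lists and green triangles the ependymal and cilia list. Choroid plexus genes reach 4.74 (Ttr), and the dark points below the line lie close to it, with a median of -0.19.

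Ependymal and motile cilia genes were also higher. Whether they came from ependymal cells or from the choroid plexus epithelium, whose list holds Foxj1 and Gmnc, was not tested. All 26 genes of the cilia list were higher on the high side with a median of 0.91, 16 were past the threshold of the split and 14 did not overlap. Among all genes tested, 4.08% were called higher and 4.8% lay above without overlap. Spag16, a protein of the axoneme's central pair, was at 1.29, 0.765 and 0.633 CPM in WT 2, WT 3 and cKO 4 and at 2.51 to 4.57 in the high libraries (median 3.95), a difference of 2.06 ± 0.26 (log2, SE). Cfap126 was at 1.36, 1.68 and 1.25 CPM against 3.16 to 5.99 (median 4.55), and Rsph1, a radial spoke protein, at 4.01, 3.76 and 3.42 CPM against 6.6 to 11.4 (median 9.07). All 3 genes separated the sides, and the low libraries lay closer to each other than they did for Kcne2 and Slc4a5. Pifo, whose promoter is printed above, was at 0.525, 0.503 and 0.528 CPM against 1.25 to 2.55 (median 2.00). Iqca, the other, overlapped, at 1.19, 1.2 and 1.22 CPM against 1.05 to 2.66 (median 1.81). Ccdc153 and Tmem212, defining markers of ependymal cells, overlapped too, with differences of 0.51 ± 0.27 and 0.63 ± 0.24.

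Among the high libraries the cilia genes had a median slope of 0.32 and 1 of 26 rose, Mia, at 0.89 ± 0.13 (edgeR adjusted p = 0.00634). Of all genes tested in the slope, 1.76% rose. The number of cilia genes rising was 6 without cKO 5, in which the summed cilia level was 88.1 CPM beside 104 to 148 in the other high libraries. It was 2 without cKO 2 or the library labelled cKO 1, and 0 without WT 1 or WT 4. Among all genes, 344 rose with every high library, 349 without cKO 5 and 271 without cKO 2. These were 337 without the library labelled cKO 1, 48 without WT 1 and 158 without WT 4. In the split, 15 of the 26 were past the threshold without the library labelled cKO 1, and 6 without cKO 4, with a median of 0.80 in the second case. Among all genes, edgeR called 696 and 246 higher in these settings, beside 788 with every library. WT libraries alone gave 25 of 26 higher with a median of 0.80.

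Vessel, stromal and immune genes had smaller medians in the split than the cilia list. The fenestrated vessels of the choroid plexus, read from Plvap, Esm1 and Rgcc, had a median difference of 0.41, and all 3 genes overlapped. Brain endothelium had a median of -0.01 over 16 genes. Its 1 gene past the threshold, Slco1c1, a thyroxine transporter that choroid plexus epithelium also makes, was at 43.3, 43.6 and 45.8 CPM against 58.5 to 96.0 (median 68.8), with a slope of 0.34 ± 0.05 (edgeR adjusted p = 0.00408, and 0.417 without WT 1). Smooth muscle and pericyte genes had a median of -0.08 and none was past the threshold. Both of these vessel lists were uneven between genotypes. Within WT, 14 of 16 endothelial and 10 of 17 smooth muscle and pericyte genes were higher (medians 0.11 and 0.05). Within cKO, where cKO 4 is the only low library, these were 2 and 1 (medians -0.13 and -0.26). Their summed levels in cKO 4 were 575 and 484 CPM, against 495 to 548 and 328 to 454 in the high libraries. Meningeal and stromal fibroblast genes were higher in 21 of 23 cases with a median of 0.31, and 20 of 23 with a median of 0.22 without the library labelled cKO 1. Bmp6, a BMP ligand, led them at 7.26, 7.54 and 9.97 CPM against 13.2 to 24 (median 20.5), with no overlap and a slope of 0.46 ± 0.06 (edgeR adjusted p = 0.00224). The fibroblast list was uneven between genotypes, with 23 of 23 higher and a median of 0.61 within WT, and 7 of 23 and -0.14 within cKO, where cKO 4 is the only low library. The fibroblast genes had a median slope of 0.14 (17 of 23 positive). It was 0.49 without WT 1 (22 positive) and 0.00237 without cKO 2 (12 positive). Border-associated macrophage genes had a median of 0.42 over 12 genes, with Cd74 at 2.48, 2.30 and 5.64 CPM against 3.40 to 10.4 (median 7.97), and overlapped. Among the high libraries 11 of 13 had a positive slope with a median of 0.41 (0.60 without WT 1, 0.33 without the library labelled cKO 1), and none passed. Microglia genes had a median of -0.02.

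**Figure D4:**
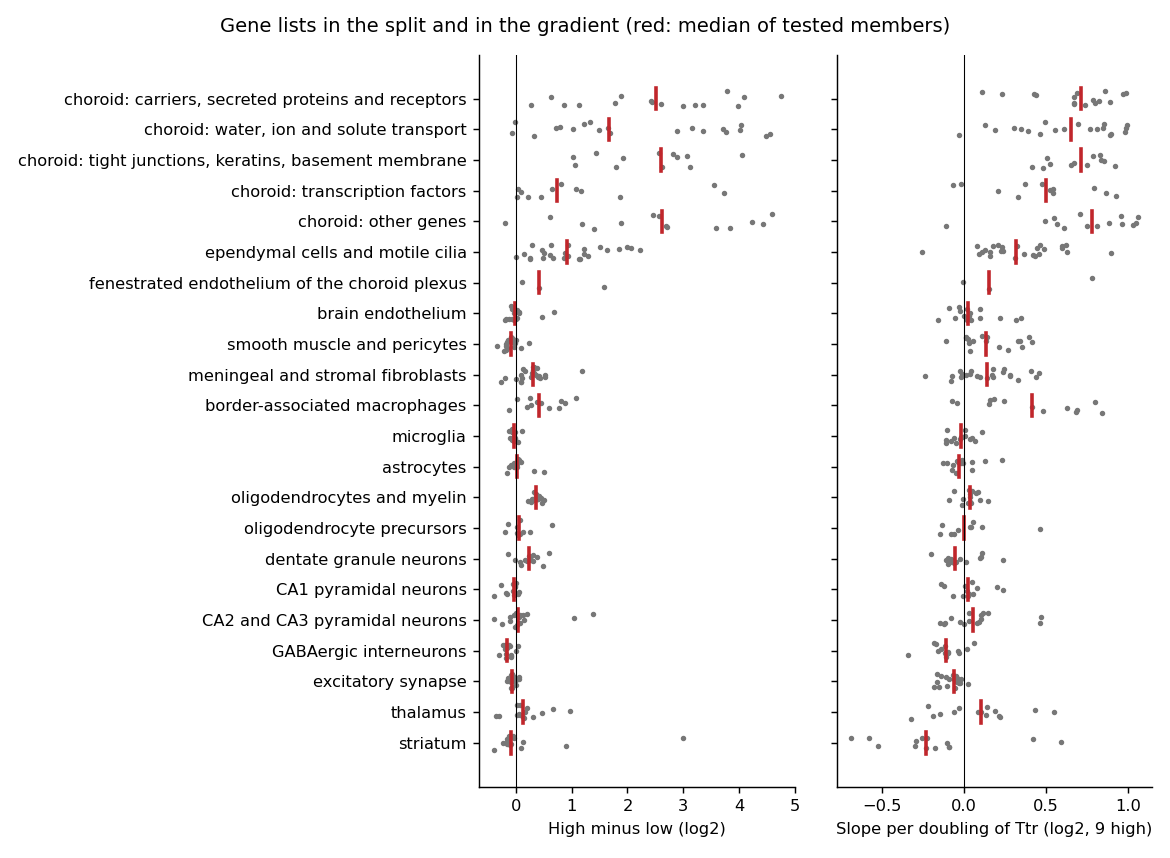
Difference between high and low libraries (log2, left) and slope per doubling of Ttr among the 9 high libraries (log2, right) for members of 22 gene lists; each grey point is a gene and the red bar is the list's median. The 5 choroid plexus lists have medians of 0.73 to 2.63 on the left, the cilia list 0.91, and the microglia and astrocyte lists lie at -0.02 and 0.02.

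Glia and neurons of the hippocampus itself moved little with the split. Astrocyte genes had a median of 0.02, and Slc7a10 and Sox9 were past the threshold. Slc7a10, an amino acid transporter, was at 22.7, 26.7 and 24.3 CPM against 29.5 to 39.2 (median 35.5), with a slope of 0.23 ± 0.04 (edgeR adjusted p = 0.0179, and 0.194 without WT 1). Oligodendrocyte and myelin genes were higher in 16 of 16 cases with a median of 0.37, and 1 was past the threshold. Mbp, myelin basic protein, was at 1828, 1717 and 1415 CPM against 1604 to 2594 (median 2034), so the sides overlapped. Trf, transferrin, which oligodendrocytes and choroid plexus both make, was at 167, 165 and 129 CPM against 170 to 253 (median 214) and did not overlap. The median slope of the myelin genes among the high libraries was 0.03. It was -0.05 without WT 4 and 0.13 without WT 5. In the split, the number of myelin genes past the threshold was 10 without cKO 5, whose summed myelin level of 3570 CPM was the lowest of the high side. It was 3 without WT 4, and 0 without cKO 4. Among all genes, edgeR called 824 higher without cKO 5, 939 without WT 4 and 246 without cKO 4, beside 788 (4.08%) with every library.

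Dentate granule genes were higher in 12 of 14 cases with a median of 0.25, which was 0.05 without cKO 4. Their summed level was 560 CPM in cKO 4, the lowest of all libraries, and 919 in WT 2 and 766 in WT 3, within the high side's range of 712 to 956. Genes of the ventral pole of the hippocampus went the other way, with 9 of 10 lower, a median of -0.25 and a summed level of 442 CPM in cKO 4 against 285 to 366 in the high libraries. Without cKO 4 that median was -0.04. Of the ventral list, Trhr was at 6.99, 5.47 and 10.6 CPM against 3.02 to 8.38 (median 6.22). On both lists cKO 4 lay outside the range of the other 11 libraries, while WT 2 and WT 3 lay within that of the high side.

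CA1 genes had a median of -0.04. Nov, a secreted matricellular protein, was lower on the high side, at 141, 149 and 160 CPM against 87.6 to 134 (median 115). CA2 and CA3 genes had a median of 0.04, with Coch (1.38 ± 0.24) and Map3k15 (1.04 ± 0.23) higher. Interneuron genes were lower in 13 of 15 cases with a median of -0.15 and none was past the threshold. Excitatory synapse genes were lower in 15 of 19 with a median of -0.06. Slc17a7, the vesicular glutamate transporter of these neurons, was at 1522, 1559 and 1491 CPM against 1305 to 1445 (median 1376) and did not overlap. Thalamus, striatum and neocortex lists had medians of 0.12, -0.09 and -0.08. Ppp1r1b (DARPP-32), on the striatum list, was at 42.4, 44.6 and 37.6 CPM against 56.6 to 102 (median 74.7), with a slope of 0.42 ± 0.07 (edgeR adjusted p = 0.0104, and 0.540 without WT 1). Drd1 and Drd2, the defining dopamine receptors of that list, overlapped between the sides.

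**Figure D5:**
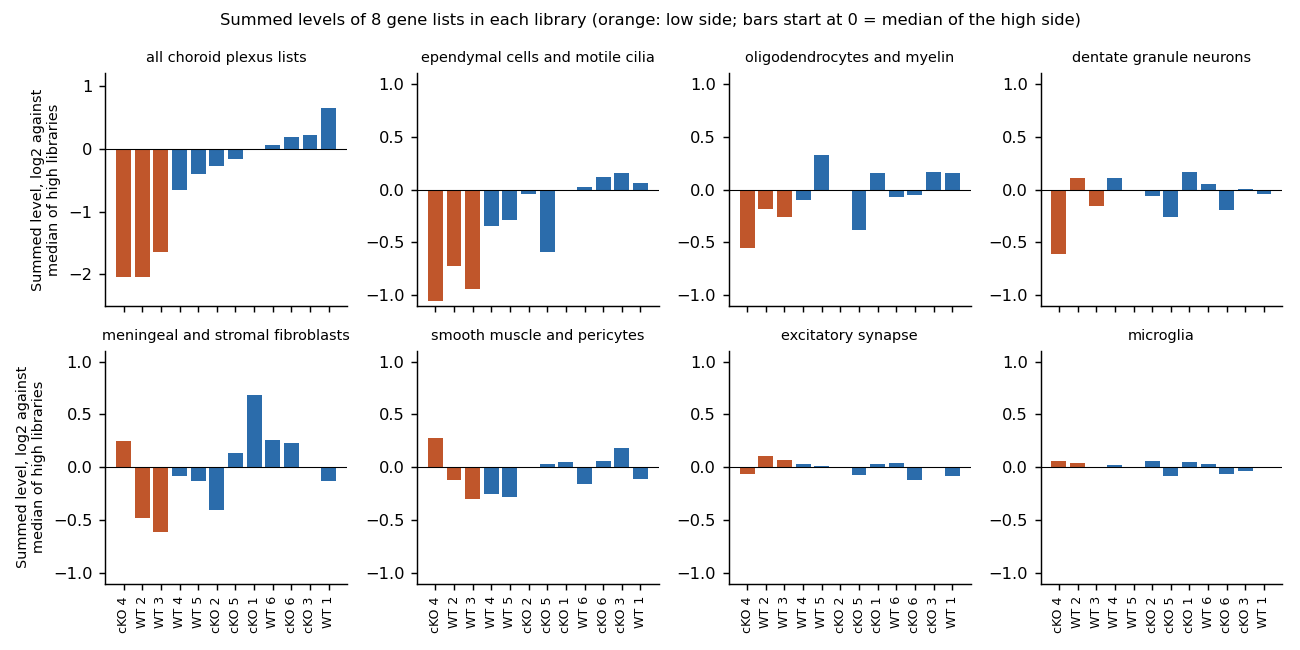
Summed level of 8 gene lists in each library, as log2 against the median of the 9 high libraries; bars start at that median (0), orange bars are the low libraries, and libraries are ordered by Ttr. The choroid plexus sum, which includes Atp1b1 and Ttr (the gene that set the sides), is 2443 to 3239 CPM on the low side and 6378 to 15829 CPM on the high side, or 2407 to 2741 and 4156 to 8172 CPM without Ttr, the cilia sum is lowest in the same 3 libraries, and the dentate sum is lowest in cKO 4.

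Genes lower on the high side were many but close to the rest. The 135 called had a median of -0.19, and 2 of them differed by more than 2-fold, while 315 of the 788 higher ones did. The filter by genotype can keep genes present only in the high libraries and drops those present only in the low ones. The contrast in large differences is therefore partly set by the filter. The 12 lower genes with the smallest p differed by -0.15 to -0.29, and 11 of them did not overlap. These too were ranked by the split itself, so this is only a description. Begain, a postsynaptic density protein, was at 129, 127 and 130 CPM in WT 2, WT 3 and cKO 4 and at 106 to 120 in the high libraries (median 114). Rasal1, a Ras GTPase-activating protein, was at 122, 117 and 142 CPM against 101 to 111 (median 104). Both genes were lower in every high library than in any low one. Among the others were Dact3, Fam189a1, Cbarp, Lrfn1, Flot1, Mark4, Fam171a2, Mypop and Lrrc4b, a synaptic adhesion protein. None of the 12 passed in the slope. The split without cKO 4 called 246 higher and 4 lower, without WT 2 477 higher, without WT 3 455 and 49, and without WT 4 357 lower. WT libraries alone called 0 in either direction in edgeR (1825 genes at an unadjusted p under 0.05), and without the library labelled cKO 1 the counts were 696 and 142.

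Of the 14 genes that fell with Ttr among the high libraries, 3 are described here, chosen after their values were seen. Erbb4, a neuregulin receptor of interneurons, had -0.29 ± 0.05 (edgeR adjusted p = 0.0130), at 45.9 to 70.8 CPM in the high libraries (median 58.4) and 61.9, 55.1 and 59.2 CPM in the low ones. Nalcn, a sodium leak channel, had -0.17 ± 0.04 and Fgf14, a modulator of sodium channels, -0.22 ± 0.04 (edgeR adjusted p = 0.0435 and 0.0265). On the split these genes overlapped, and Erbb4 differed by 0.02 ± 0.10. None of the 3 passed without WT 1.

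Hemoglobin transcripts overlapped between the sides of the split and rose with Ttr among the high libraries. Hbb-bs was at 132, 59.4 and 145 CPM in the low libraries and at 93.7 to 233 in the high ones (median 142), with a slope of 0.66 ± 0.11 (edgeR adjusted p = 0.0104). Hba-a1, Hba-a2, Hbb-bt and Alas2, the heme synthesis enzyme of red cells, had slopes of 0.60 to 0.65 and also passed, and of these 5 none passed without WT 1 and 2 passed without WT 4. The hemoglobin genes come in near-identical copies, between which reads may have been split. Immediate early genes, which respond to neuronal activity, had positive slopes in 12 of 12 cases with a median of 0.31. None passed. Without cKO 5 there were 3 that passed, without cKO 6 there were 2, and without cKO 3 or the library labelled cKO 1 there was 1. Among all genes, 349 rose without cKO 5, 256 without cKO 6, 267 without cKO 3 and 337 without the library labelled cKO 1. Without WT 1 the median slope of the immediate early genes was 0.07.

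Library composition was compared between the sides, which Ttr had set. Genes with a count numbered 25937 ± 213 on the low side (SD, n = 3) and 26320 ± 198 on the high side (SD, n = 9). These are given without a test because choroid plexus genes can enter this number. Mitochondrially encoded genes took 7.76 ± 0.254% and 7.45 ± 0.358% of counts. Total count and the mitochondrial share had an exact permutation p of 0.205 after adjustment over 5 measures (two-sided). The smallest unadjusted p that 220 splits allow is 0.00455. The top 10 genes took 7.93 ± 0.825% and 7.39 ± 0.289%, given without a test because Ttr can enter such shares.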

How the data were processed

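The authors deposited a table of estimated counts for 12 animals, made with Salmon 1.3.0 and GRCm38 according to the submitters' processing notes. For its annotation and strand setting nothing is stated in those sources. In each library 24.8% to 25.9% of values had decimals, so they were rounded. All 12 columns of 33250 gene symbols were used.

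edgeR 4.0.16 (R 4.3.3; quasi-likelihood F test) fitted the split and the slope with genotype as covariate, TMM scaling, filterByExpr by genotype (minimum count 10, total 15) and Benjamini-Hochberg adjustment over all genes tested, at a threshold of 0.05. The slope's predictor was log2 of Ttr CPM of the library's total. Errors of log2 values are the difference divided by the square root of F. Total count and the mitochondrial share were compared by exact permutation, without genotype. The adjustment was over 5 measures, which included genes with a count and the top 10 and top 100 shares. Fits were tested on simulated data. Alternatives were DESeq2 1.42.0, limma-voom (limma 3.58.1), other scalings, filters and models, and leaving out each library. The p-values reflect variation from animal to animal.

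Named genes were Ttr, Aqp1, Cldn2 and Otx2, up to 4 genes of each list with the smallest p, the first 2 of each list outside the choroid plexus, and per direction up to 12 others averaging at least 1 CPM. Other members described by role were chosen after their values were seen. The members, the 33 lists and the tests were chosen with earlier results of these data known. Coordinates come from GENCODE for GRCm38 and promoters from RefSeq. Those of Ttr, and 1 gene that the rule names, are not reported here.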

Additional observations from a re-analysis of the deposited data

Results flagged for a closer look

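Among 222 groups of 9 high libraries, 20 had 1 library whose gap to its nearest neighbour was a larger share of the range than Dixon's 95% value allows, where chance at 1 in 20 gives about 11.1. Each group holds the values of a gene. Many of these genes were named by their p in these same libraries, and genes can move together. The number given by chance is therefore no yardstick for the 20. In 9 of the 20 groups the library was cKO 5, in which genes of striatum, retrohippocampal cortex, habenula, neocortex and hypothalamus stood high. They were Drd1 at 8.73 CPM, Drd2 at 5.64, Tac1 at 9.47, Cbln1 at 13.9, Chrnb4 at 2.99, Nxph4 at 2.27, Trh at 1.85, Cartpt at 2.36 and, from the Cajal-Retzius list, Lhx5 at 0.553 CPM. WT 1, the library with the most Ttr, stood apart in 6. It was high for Sema3b at 23.8 CPM, Sostdc1 at 41.9, Slco1c1 at 96.0, Emcn at 8.07 and Igfbpl1 at 1.87, and low for Gm15446 at 12.9. The library labelled cKO 1 was high for Itm2a at 39.5 CPM, the meningeal transporter gene Slc6a20a at 40.5, and the border macrophage genes Mrc1 at 5.71 and Pf4 at 0.959. WT 4 was high for the predicted gene Gm42878 at 4.44 CPM.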

How the results depend on the processing

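The split called 788 genes higher and 135 lower, and leaving out 1 library gave 246 to 939 and 4 to 357. Library totals alone called 65 lower (they shift the median of all genes to 0.02), DESeq2 419, log2 Ttr as a continuous term 220, and WT 4 moved to the low side 293. WT libraries alone called 0 and 0, and cKO libraries alone, where cKO 4 is the only low library and is assumed to vary like the others, 289 and 47. With animal number as a replicate block there were 327 and 6, of which 317 and 4 were also called without it. The numbers do not pair the animals (correlations of same-numbered animals from -0.35 to 0.35), and none correlated best with its own number. The slope called 344 rising and 14 falling, DESeq2 545 and 136, and leaving out 1 library gave 48 to 349 and 0 to 22. The difference in the top 100 share was -0.413 percentage points, and -0.661 (without WT 2) to 0.0139 (without cKO 4) with 1 library left out. No named gene past the threshold changed direction under any setting run. RLE scaling, limma-voom, the filters run and dropping genotype kept the counts within 1.5 times, as did upper-quartile scaling for the split. Ttr on the low side rests on 1342 to 22757 counts.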

Other observations

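Base composition and length of the genes called in the split and the slope were described and not tested. The median GC content of transcripts was 50.1% for genes higher on the high side, 56.3% for those lower, 41.6% for the 14 that fell with Ttr and 48.9% for all genes tested. The median gene span was 30272 bases for those higher, 17054 for those lower, 45098 for those that fell with Ttr and 18933 for all. Protein-coding genes made up 94.9% of those higher and 80.3% of all genes tested.

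Several single members stood apart from a list whose other members changed little. Coch, Map3k15, Ppp1r1b, Six3, Slco1c1, Emcn, Slc7a10, Sox9 and Trp73 lay above the low side without overlap. Their lists of CA2 and CA3, striatum, endothelium, astrocytes and Cajal-Retzius cells had medians from -0.09 to 0.04. These were 2 of 16 CA2 and CA3 genes, 2 of 14 striatum, 2 of 16 endothelial, 2 of 14 astrocyte and 1 of 9 Cajal-Retzius genes. Among all genes tested, 4.8% lay above without overlap. Trp73, a p53 family factor of Cajal-Retzius and multiciliated cells, was at 5.16, 4.81 and 2.79 CPM in WT 2, WT 3 and cKO 4 and at 5.77 to 9.37 in the high libraries (median 7.65). Its slope among the high libraries was 0.39 ± 0.07 (edgeR adjusted p = 0.0160, and 0.424 without WT 1). Reln, of the same list, was at 82.8, 90.9 and 89.3 CPM against 63.6 to 96.6 (median 75.3) and had a slope of -0.34 ± 0.08, which did not pass (edgeR adjusted p = 0.0557).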
